A study of Homo sapiens with 6 samples.

Results

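The unfolded protein and ATF4 stress response was followed in samples labelled HCC1954 that had been given either vehicle alone or a compound called TBK1 inhibitor II. The members are 38 genes chosen by symbol, and a probe belonged to one of them when the platform annotation gave it that symbol. Of the 38 genes 37 had a probe on the array and 34 were measured, meaning that at least 1 probe had a detection p-value under 0.05 on at least 3 of the 6 arrays. All 34 were detected on all 6 arrays, so no measured member passed that filter through 1 group alone. They stand among 11582 genes tested and 20045 genes named on the array.

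HCC1954, known as a breast cancer line that carries extra copies of ERBB2, is given the subtype HER2 positive in the labels. The vehicle group held 3 samples and the inhibitor group 3 samples, each treated for 3 days, and TBK1 inhibitor II is a small molecule named for its target, the kinase TBK1 of innate immune signalling. Both groups shared the same line and time, and no source used here gives the dose. The samples are of 1 cell line, and the labels leave unsaid whether replicates were separate cultures, so the p-values cover the spread between these samples alone, which can be technical. In such bulk RNA, fewer cells with a transcript and less of it per cell cannot be told apart.

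The median signal intensity was 98.5 to 138.1 on the vehicle arrays and 110.7 to 130.7 on the inhibitor arrays, and 18325 to 20741 probes were detected per array. Of 12 markers of HER2-amplified breast epithelium 8 were detected on all 6 arrays, ERBB2 among them, while GRB7, KRT7, KRT19 and CLDN3 were detected on 0. The mean level of ERBB2 stood at percentile 59.4 of the genes tested, and the median percentile of the 8 measured markers of this list was 30.9. That median was 74.6 for the measured mesenchymal and fibroblast markers, 39.7 for the neural and 32.9 for the leukocyte and endothelial ones. The brightest measured markers of all lists were VIM (97.2), NEFM (90.6) and CDH2 (84.5). Of 8 mesenchymal and fibroblast markers 4 were detected on all 6 arrays, with the counts 3 of 7 for neural, 0 of 2 for basal epithelial, and 1 of 6 for leukocyte and endothelial markers. Markers not detected thus include some of HER2-amplified breast epithelium, GRB7 among them, and the samples are called by their label. Of all these markers TUBB3 (neural) and CD14 (leukocyte) rose with the inhibitor, with log2 fold changes of 1.08 and 1.06 (adjusted p = 0.0336 and 0.0429 by limma). The other measured neural markers NEFM, NEFL and GAP43 had -0.18, -0.29 and 0.18, and the leukocyte marker CD68 had 0.32, none past the threshold. The median of the measured neural markers was -0.0011. The summed normalized level of the 6 leukocyte and endothelial genes was 285 to 297 with vehicle and 365 to 390 with the inhibitor, with PTPRC, CD3E, PECAM1 and CDH5 detected on 0 arrays. That of the 7 neural genes was 2065 to 3181 and 2179 to 2661, with ELAVL4 detected on 0. The mesenchymal and fibroblast sum was 8073 to 9089 with vehicle and 6902 to 7320 with the inhibitor. That sum is on a linear scale, where VIM was the brightest of its genes, and VIM had a log2 fold change of -0.46. CDH2, COL1A1 and COL3A1 had 0.31, 0.35 and 0.18, so 3 of the 4 measured markers were above 0, and none passed. For the 12 genes of HER2-amplified breast epithelium the sum was 1137 to 1176 with vehicle and 1016 to 1256 with the inhibitor. The part of these differences between the groups in the results below was not tested.

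Cells answer misfolded protein in the endoplasmic reticulum (ER) through the membrane sensors PERK (gene EIF2AK3), IRE1 (ERN1) and ATF6. PERK, and GCN2 (EIF2AK4) when amino acids run short, phosphorylate the translation factor eIF2alpha, which slows protein synthesis in general but favours translation of the transcription factor ATF4. ATF4 turns on genes of amino acid supply and, under lasting stress, DDIT3, whose product is known as CHOP. IRE1 splices the RNA of XBP1, and XBP1 and cleaved ATF6 turn on genes of folding and of ER-associated degradation. Phosphate is removed from eIF2alpha by phosphatase complexes that hold PPP1R15A, which stress induces, or PPP1R15B, which is known as the constitutive form.

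The 38 genes were divided into 21 of the ATF4 arm, 12 of the XBP1 and ATF6 arms and 5 sensors, kinases and phosphatase subunits. The XBP1 and ATF6 arms were kept together because many of their genes answer to both factors. PPP1R15A was counted in the ATF4 arm and PPP1R15B with the sensors, although both are described together below.

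The members that rose were PPP1R15A, PPP1R15B and SYVN1, and their promoter sequences are shown first because the results turn on them. The sequences are the 250 bases before the annotated transcription start in RefSeq, build GRCh38.p14, each written in the direction of its gene. They lie at chr19:48872171-48872420 (plus strand), chr1:204411818-204412067 (minus strand) and chr11:65134520-65134769 (minus strand) in that order. Capitals mark a CRE (TGACGTCA, bound by the ATF and CREB family) in PPP1R15A and a CARE (TGATGNAA, the composite site of C/EBP and ATF factors) in PPP1R15B.
PPP1R15A: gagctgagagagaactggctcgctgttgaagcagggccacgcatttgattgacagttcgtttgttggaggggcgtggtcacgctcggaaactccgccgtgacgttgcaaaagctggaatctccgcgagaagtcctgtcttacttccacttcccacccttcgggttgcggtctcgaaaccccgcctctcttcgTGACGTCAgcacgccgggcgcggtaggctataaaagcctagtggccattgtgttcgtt
PPP1R15B: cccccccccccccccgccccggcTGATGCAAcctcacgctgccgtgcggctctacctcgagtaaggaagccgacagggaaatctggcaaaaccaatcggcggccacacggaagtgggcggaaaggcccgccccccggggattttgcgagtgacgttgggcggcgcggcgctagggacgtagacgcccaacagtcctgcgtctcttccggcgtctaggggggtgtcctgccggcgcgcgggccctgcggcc
SYVN1: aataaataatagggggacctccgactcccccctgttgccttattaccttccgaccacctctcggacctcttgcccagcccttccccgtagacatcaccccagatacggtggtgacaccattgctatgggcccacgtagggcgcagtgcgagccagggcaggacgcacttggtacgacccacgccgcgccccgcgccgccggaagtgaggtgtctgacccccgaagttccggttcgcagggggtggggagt

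Both strands of these windows were searched for 5 motifs, and 34 of the 38 members had a RefSeq promoter entry. Besides CARE and CRE these were the ER stress element ERSE (CCAAT, then 9 bases of any kind, then CCACG), its shorter form ERSE-II (ATTGG, then 1 base of any kind, then CCACG) and the XBP1 site UPRE (TGACGTGG). UPRE shares the letters TGACGT with CRE, and ERSE-II holds the parts of ERSE with CCAAT on the opposite strand and a shorter gap. SYVN1 matched none of the 5 spellings in this window.

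The motif matches of the arms differed in kind. CARE was found in 4 of 18 promoters of the ATF4 arm (22.2%) and 1 of 11 of the XBP1 and ATF6 arms (9.09%), against 3.89% of 27305 genes. ERSE was found in 3 of 11 promoters of the XBP1 and ATF6 arms (27.3%) and 0 of 18 of the ATF4 arm, against 0.0916% of all genes. ERSE-II was found in 2 of 11 (18.2%) and 0 of 18, against 0.0659%. CRE was found in PPP1R15A alone among the members and in 2.03% of all genes, and UPRE in 0 members and 0.78% of all genes. Such genes became known as targets in part through these elements, so the shares are a description of the lists.

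The following windows show matches in members that were measured, with the motif in capitals and 10 bases on either side. CARE is shown in ASNS at chr7:97872459-97872486 (minus strand), CEBPG at chr19:33374061-33374088 (plus strand) and ATF3 at chr1:212565206-212565233 (plus strand). ERSE is shown in XBP1 at chr22:28800593-28800631 (minus strand), PDIA6 at chr2:10812843-10812881 (minus strand) and, read on the opposite strand, CRELD2 at chr22:49918544-49918582 (plus strand). ERSE-II is shown in SDF2L1 at chr22:21642104-21642134 (plus strand), also read on the opposite strand.
ASNS: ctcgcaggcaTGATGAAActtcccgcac
CEBPG: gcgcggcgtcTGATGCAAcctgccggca
ATF3: aaggtcaggaTGATGGAAggctgtcata
XBP1: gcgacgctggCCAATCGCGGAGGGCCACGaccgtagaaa
PDIA6: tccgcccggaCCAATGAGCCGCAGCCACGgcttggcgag
CRELD2: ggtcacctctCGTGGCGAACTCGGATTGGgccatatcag
SDF2L1: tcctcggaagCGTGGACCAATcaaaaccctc

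With the inhibitor, RNA of both targeting subunits of the eIF2alpha phosphatase and of the ER ubiquitin ligase SYVN1 was higher, and no member fell. Of 34 measured members 3 rose (8.82% of them), and 31 did not pass the test. At an unadjusted p under 0.05 there were 10 members, 8 higher and 2 lower (NUPR1 and ATF5). The count over all 11582 genes was 2829, with 1127 of them lower. Over all genes tested 5.45% passed in either direction, 3.59% rose and 1.86% fell, so 3 is a small number of genes against that background and nothing is read from the share. The test was limma on background-corrected, quantile-normalized log2 intensity, with Benjamini-Hochberg adjustment over all 11582 genes and a threshold of 0.05. Values named log2 level below are on this scale, and a fold change is inhibitor over vehicle.

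**Figure D1:**
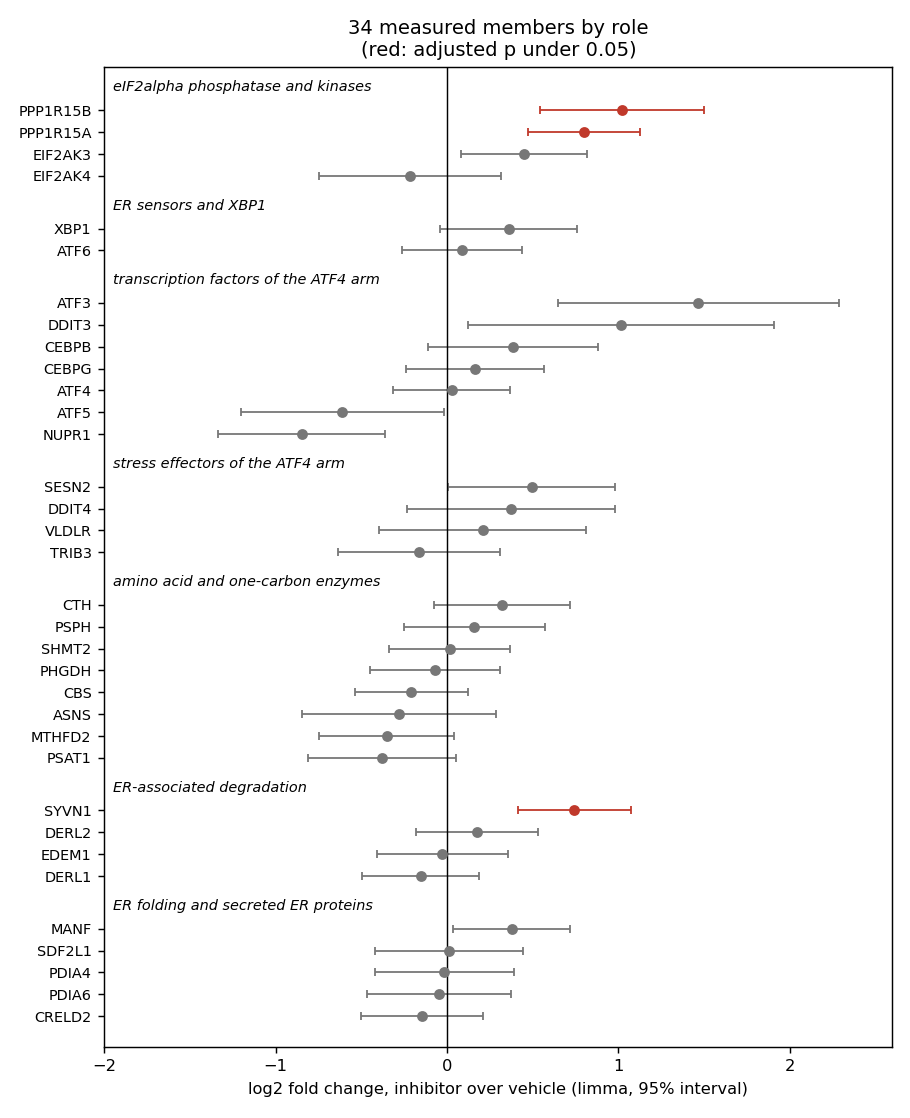
Fitted log2 fold changes of the 34 measured members, inhibitor over vehicle, by role. Points are limma estimates, bars are 95% intervals, and the 3 genes past the threshold, PPP1R15B, PPP1R15A and SYVN1, are red. The amino acid enzymes and the folding genes lie around 0.

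PPP1R15A (probe ILMN_1659936), the stress-induced subunit that directs phosphatase to eIF2alpha, had log2 levels of 8.86, 8.82 and 8.86 in vehicle replicates 1, 2 and 3 and 9.71, 9.57 and 9.66 in inhibitor replicates 1, 2 and 3. All 3 inhibitor samples lay above all 3 vehicle samples, and the gap was many times the spread within either group. It rose 1.74-fold, by 0.80 ± 0.14 on the log2 scale (limma SE, n = 3 in each group, adjusted p = 0.0268).

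PPP1R15B (probe ILMN_1670664), the subunit of the constitutive complex, had log2 levels of 5.48, 5.38 and 6.06 with vehicle and 6.62, 6.88 and 6.48 with the inhibitor. The groups did not overlap, although vehicle replicate 3 came closer to the inhibitor samples than the other two did. The rise was 2.03-fold, a log2 fold change of 1.02 ± 0.21 (limma adjusted p = 0.0323). Its other kept probe, detected on 1 of 3 vehicle arrays and on 3 of 3 inhibitor arrays, had a log2 fold change of 0.76 ± 0.19. That probe met the filter through the inhibitor arrays, where it was higher, so nothing is read from its value. The signal of the first probe also lay close to background, and in the deposited processed values its log2 fold change was 0.36 (limma adjusted p = 0.0345).

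SYVN1 (probe ILMN_1803143) encodes HRD1, the ubiquitin ligase of the ER membrane that marks misfolded proteins for the proteasome. It had log2 levels of 8.68, 8.70 and 8.73 with vehicle and 9.50, 9.32 and 9.51 with the inhibitor, and the groups did not overlap. SYVN1 rose 1.67-fold, a log2 fold change of 0.74 ± 0.15 (limma adjusted p = 0.0298). Its other probe was detected on 1 array and was not kept.

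These 3 calls were near the threshold. With any 1 inhibitor array left out 0 members passed. Over all 11582 genes 35, 4 and 10 passed without inhibitor replicates 1, 2 and 3, so nothing particular to the members is read from that 0. Without vehicle replicates 1, 2 and 3 the counts over all genes were 264, 369 and 230. Of the 3, PPP1R15A alone passed without vehicle replicate 1 (adjusted p = 0.0488 by limma) and without vehicle replicate 2 (0.0475), and PPP1R15B alone without vehicle replicate 3 (0.0322), so SYVN1 passed only with all 6 arrays. The log2 fold changes themselves moved little without an array, from 0.77 to 0.84 for PPP1R15A, from 0.90 to 1.21 for PPP1R15B and from 0.72 to 0.81 for SYVN1.

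**Figure D2:**
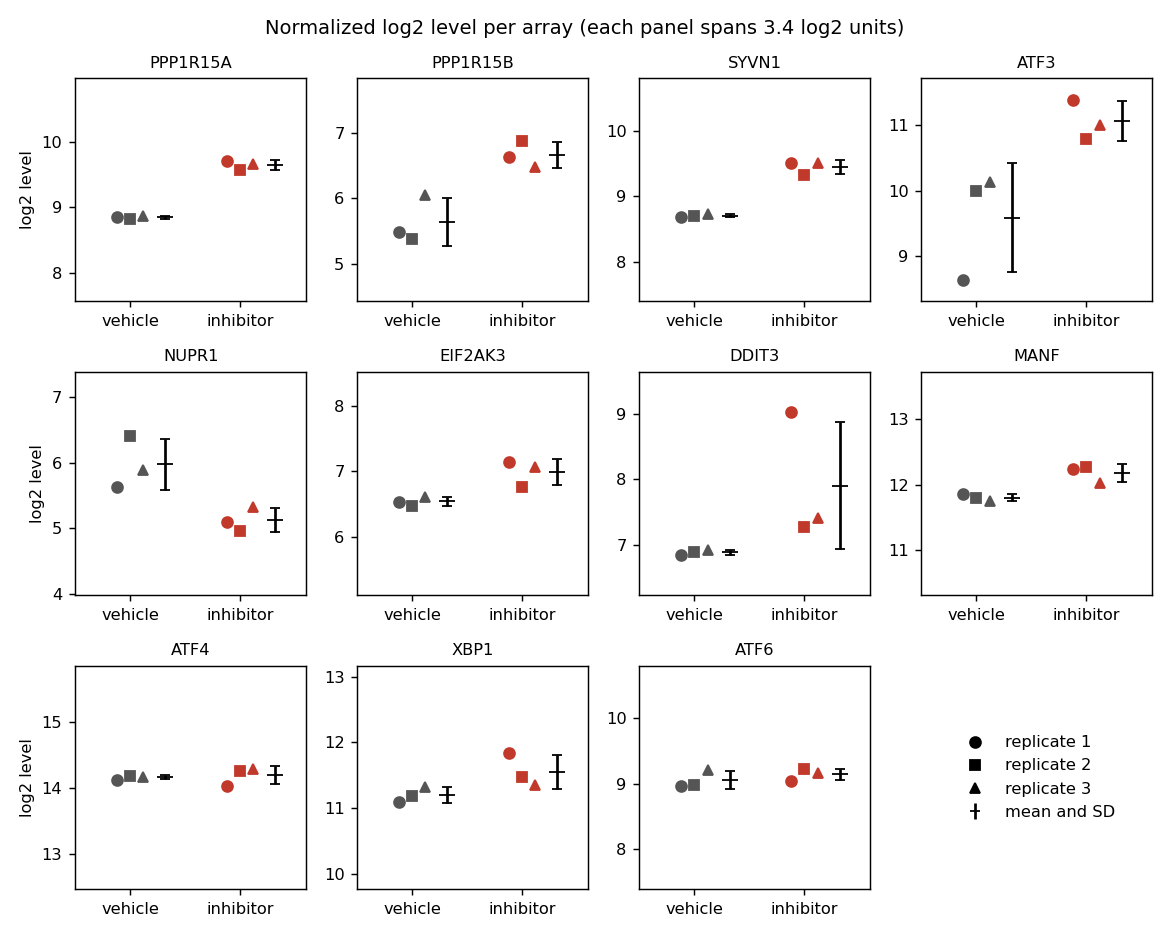
Normalized log2 level on each array for 11 members. Symbols mark the replicate, grey the vehicle and red the inhibitor samples, and the dash with its bar is the group mean with SD (n = 3). PPP1R15A and SYVN1 have narrow groups that lie apart, while DDIT3 is high on the array of inhibitor replicate 1 and ATF3 is low on that of vehicle replicate 1.

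Among the kinases upstream of ATF4, EIF2AK3, which encodes the ER sensor PERK, had log2 levels of 6.53, 6.48 and 6.61 with vehicle and 7.14, 6.76 and 7.06 with the inhibitor. The groups did not overlap, but the log2 fold change of 0.45 ± 0.16 did not pass (limma adjusted p = 0.134), and the deposited processed values gave 0.21. EIF2AK4, which encodes the amino acid sensor GCN2, had -0.22 ± 0.24 (adjusted p = 0.623) with overlapping groups.

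ATF4 itself had log2 levels of 14.13, 14.19 and 14.17 with vehicle and 14.04, 14.25 and 14.29 with the inhibitor. The groups overlapped, and the log2 fold change was 0.03 ± 0.15, with a 95% interval from -0.31 to 0.37 (limma adjusted p = 0.929). Its 2 other kept probes had 0.31 and 0.32, each with an unadjusted p above 0.05. Since ATF4 is controlled largely at translation, its RNA does not measure the amount of protein.

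The 6 other transcription factors of the ATF4 arm went in different directions, and none passed. ATF3, a repressor and activator of the same family that many stresses induce, had log2 levels of 8.64, 9.9995 and 10.13 with vehicle and 11.38, 10.78 and 11.01 with the inhibitor. The groups did not overlap, and vehicle replicate 1 lay well below the other vehicle samples. The log2 fold change of 1.47 ± 0.36 missed the threshold narrowly (limma adjusted p = 0.0503). It passed in 8 of 16 alternative settings, and it was 0.99 without vehicle replicate 1. Those 8 settings called 710 to 1364 genes in all, against 631 as reported. The other probes of ATF3, ILMN_1661109 and ILMN_1791346, were detected on 0 arrays and were not kept.

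DDIT3, which encodes the pro-apoptotic factor CHOP, had log2 levels of 6.84, 6.88 and 6.93 with vehicle and 9.02, 7.27 and 7.41 with the inhibitor. Every inhibitor sample was above every vehicle sample, but inhibitor replicate 1 stood far above the other two. The log2 fold change was 1.02 ± 0.40 (limma adjusted p = 0.159), and without inhibitor replicate 1 it was 0.46 (adjusted p = 0.190).

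NUPR1, a small stress-induced chromatin protein, had log2 levels of 5.63, 6.40 and 5.88 with vehicle and 5.09, 4.96 and 5.32 with the inhibitor. All inhibitor samples lay below all vehicle samples, the opposite order from ATF3 and DDIT3. Its log2 fold change was -0.85 ± 0.22 (limma adjusted p = 0.0545), and -0.24 in the deposited processed values. It passed, as lower, in 3 of 15 alternative settings. Its other kept probe, detected on 3 of the 6 arrays, had -0.51.

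ATF5, a relative of ATF4, had a log2 fold change of -0.61 ± 0.26 (limma adjusted p = 0.192), with the inhibitor samples below the vehicle samples. CEBPB and CEBPG, the C/EBP proteins that pair with ATF4 at CARE sites, had 0.38 ± 0.22 and 0.16 ± 0.18 (adjusted p = 0.320 and 0.623), with overlapping groups.

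Of the genes grouped as stress effectors of the ATF4 arm, SESN2, a sensor of leucine that inhibits mTORC1, had 0.50 ± 0.22 (limma adjusted p = 0.198), with the inhibitor samples above the vehicle samples. DDIT4, another inhibitor of mTORC1, had 0.37, the lipoprotein receptor VLDLR 0.21 and the pseudokinase TRIB3 -0.16, with adjusted p-values of 0.433, 0.682 and 0.683 and overlapping groups. CHAC1, a glutathione-degrading enzyme, was detected on 2 inhibitor arrays and 0 vehicle arrays and was not tested.

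The 8 enzymes of amino acid and one-carbon metabolism, which ATF4 is known to induce, had a median log2 fold change of -0.14, with 3 above 0, none past the threshold and 0 at an unadjusted p under 0.05. Over the alternative settings that median ran from -0.20 to -0.0072, the latter with median centring, where all genes had a median of 0.24. PSAT1 of serine synthesis had -0.38 ± 0.19, the mitochondrial folate enzyme MTHFD2 -0.35 ± 0.17 and asparagine synthetase ASNS -0.28 ± 0.25 (limma adjusted p = 0.261, 0.249 and 0.543). Their 95% intervals reached from -0.81 to 0.05, from -0.74 to 0.04 and from -0.85 to 0.29. CBS, which makes cystathionine, had -0.21 (limma adjusted p = 0.426) and was the only enzyme of the 8 whose groups did not overlap. Over all genes tested 31.5% had groups that did not overlap, so nothing is read from that. PHGDH, which opens serine synthesis, had -0.07, SHMT2, the mitochondrial serine hydroxymethyltransferase, 0.02, the serine phosphatase PSPH 0.16 and CTH, which makes cysteine, 0.32 (adjusted p = 0.840, 0.963, 0.642 and 0.300).

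In the XBP1 and ATF6 arms, XBP1 had log2 levels of 11.09, 11.18 and 11.32 with vehicle and 11.85, 11.47 and 11.35 with the inhibitor. The groups did not overlap, by a narrow margin between vehicle replicate 3 and inhibitor replicate 3. The log2 fold change was 0.36 ± 0.18 (limma adjusted p = 0.248) and 0.24 on its other kept probe. Splicing of XBP1 RNA was not analysed here.

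ATF6 had log2 levels of 8.97, 8.98 and 9.21 with vehicle and 9.04, 9.22 and 9.16 with the inhibitor. The groups overlapped, with a log2 fold change of 0.09 ± 0.15 (limma adjusted p = 0.776). ERN1 was detected on 0 arrays.

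MANF, a secreted factor that stabilises the ER chaperone BiP, had log2 levels of 11.86, 11.79 and 11.75 with vehicle and 12.24, 12.27 and 12.02 with the inhibitor. The groups did not overlap, and the log2 fold change of 0.38 ± 0.15 did not pass (limma adjusted p = 0.169), although it passed in 3 of 16 alternative settings. Those 3 settings called 1240 to 1364 genes in all, against 631 as reported.

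The remaining folding genes lay near 0. The disulfide isomerases PDIA4 and PDIA6 had log2 fold changes of -0.02 and -0.05, the chaperone cofactor SDF2L1 0.01 and CRELD2, an ER protein induced by stress, -0.15, each with an SE between 0.159 and 0.191 and an adjusted p above 0.6. In ER-associated degradation, EDEM1, which trims mannose on misfolded glycoproteins, had -0.03, and the membrane proteins DERL1 and DERL2 had -0.15 and 0.17 (limma adjusted p = 0.939, 0.581 and 0.543). The other kept probe of DERL2 had -0.18. SEL1L, the partner of SYVN1 in the ligase complex, was detected on 1 array and not tested, and HERPUD1 was not analysed here.

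Set side by side, the ATF4 arm had 1 riser, 0 fallers and 19 genes not past the threshold among 20 measured. Its log2 fold changes had a median of 0.09 and a mean of 0.13, with 12 values above 0. The XBP1 and ATF6 arms had 1 riser, 0 fallers and 9 not past among 10 measured, with a median of -0.0026, a mean of 0.13 and 5 values above 0, so that median and mean differ in sign. The difference between the arms was not tested. Over all genes tested the median was 0.03, the mean was 0.04 and 53.7% of values were above 0. Group values did not overlap for 7 of 20 genes of the ATF4 arm, 4 with the inhibitor above and 3 below, and for 3 of 10 genes of the XBP1 and ATF6 arms, all with the inhibitor above. Over all genes the share without overlap was 31.5%, 18.5% with the inhibitor above and 13% with it below.

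To show the arms array by array, each gene was set against its own mean over the 6 arrays, and these deviations were averaged over the arm. For the ATF4 arm the averages on the log2 scale were -0.26, -0.02 and 0.09 with vehicle and 0.26, -0.11 and 0.04 with the inhibitor, so the groups overlapped. For the XBP1 and ATF6 arms they were -0.09, -0.04 and -0.06, and then 0.12, 0.04 and 0.03. Those groups did not overlap, nor did those of all genes tested, whose averages ran from -0.050 to 0.0041 with vehicle and from 0.016 to 0.023 with the inhibitor.

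Of the 20 genes of the ATF4 arm 9 (45%) had their highest level on the array of inhibitor replicate 1 and 7 (35%) on that of vehicle replicate 3, against 15.9% and 14.1% of all genes. The lowest level was on the array of vehicle replicate 1 for 8 (40%) and on that of inhibitor replicate 2 for 5 (25%), against 27.4% and 13.4% of all genes. Each group held an array with many of the highest values and another with many of the lowest. Vehicle replicate 1 also had the fewest detected probes, 18325, and the part of that in the result was not tested. The pooled within-group SD of the array averages was 0.18 for the ATF4 arm and 0.04 for the XBP1 and ATF6 arms, with different numbers of genes behind them and no test of that difference.

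**Figure D3:**
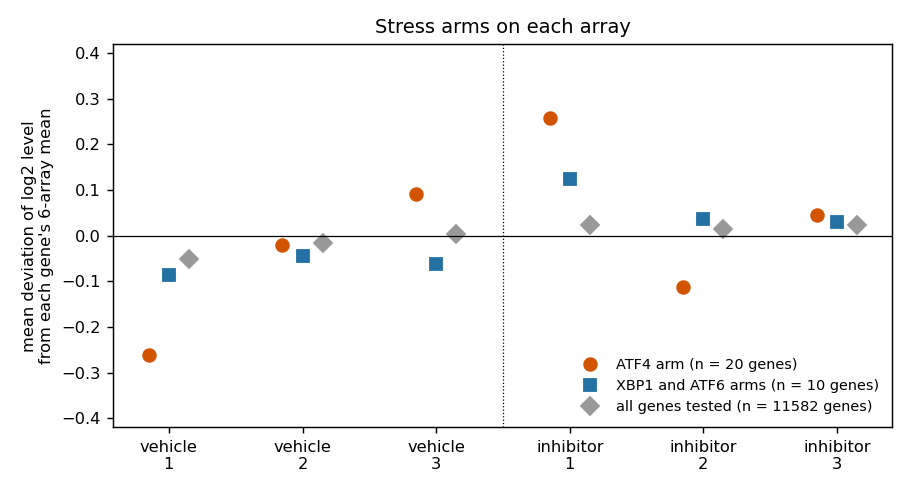
Mean deviation of log2 level from each gene's 6-array mean, on each array, for the ATF4 arm (circles, 20 genes), the XBP1 and ATF6 arms (squares, 10 genes) and all 11582 genes tested (diamonds). The ATF4 arm runs from -0.26 on vehicle replicate 1 to 0.26 on inhibitor replicate 1, and its groups overlap.

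Of 88 further genes of the pathway 78 were measured, 1 rose, 1 fell and 76 did not pass. SLC38A2, an amino acid transporter induced through ATF4, had log2 levels of 10.24, 10.67 and 10.45 with vehicle and 11.27, 11.18 and 11.19 with the inhibitor. The groups did not overlap, and it rose by 0.76 ± 0.16 (limma adjusted p = 0.0348). ALDH1L2, a mitochondrial folate enzyme, passed detection with vehicle (3 arrays) but not with the inhibitor (0 arrays), and was at least 1.35-fold lower with the inhibitor (adjusted p = 0.0475), taking the lowest level of a detected probe on each inhibitor array as the floor. This bound holds for the background correction used, since in the deposited processed values the log2 difference was -0.19 (limma adjusted p = 0.151). The call was made in 3 of 15 alternative settings. ALDH1L2 entered the test only through the vehicle arrays on which it was detected, so it had to differ, and nothing is read from its call.

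Among the 30 measured further genes of the ATF4 pathway 10 had log2 fold changes above 0, with a median of -0.10 that was 0.094 with median centring. Of the 30, 1 rose, 1 fell and 9 had an unadjusted p under 0.05, 5 of them lower. Over all genes the count at an unadjusted p under 0.05 was 2829 of 11582, with 1127 of them lower. The cystine transporter SLC7A11 and the secreted STC2 had -0.03 and -0.13 (limma adjusted p = 0.947 and 0.732). Among the 36 measured further genes of ER folding and degradation 20 were above 0, with a median of 0.03 and none past the threshold by limma. At an unadjusted p under 0.05 there were 6, 1 of them lower, to be set against the same count over all genes. The 36 include HSPA5, the chaperone BiP, with 0.34 ± 0.20, HSP90B1, the chaperone GRP94, with 0.12 ± 0.17, and DNAJB9, an XBP1 target, with 0.39 ± 0.20 (adjusted p = 0.338, 0.726 and 0.252). Of the 12 measured further sensors and regulators none passed. At an unadjusted p under 0.05 there were 4, 1 of them lower, against 2829 of all 11582 genes.

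**Figure D4:**
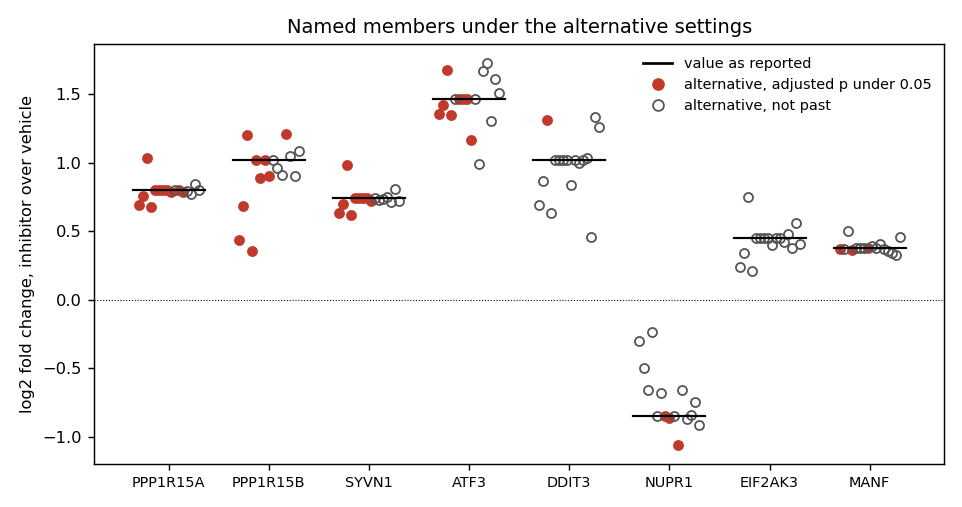
Log2 fold changes of 8 members under the alternative settings (points) and as reported (line). Filled red points have an adjusted p under 0.05 and open points do not. No gene of the 8 changes sign, while most pass under some settings only, and EIF2AK3 under 0 of them.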

How the data were processed

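RNA of 6 samples was hybridised to arrays of the type Illumina HumanHT-12 V4.0. Per the file headers, the deposited table holds 47321 probes with a linear signal intensity and a detection p-value per array, not normalized between arrays. The deposited processed table holds log2-like values with 1 distribution for all arrays; the submitters' processing notes name lumi, and no source used here gives the log base.

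In R 4.3.3, limma 3.58.1 was applied to the intensities: neqc (normexp background from the detection p-values, offset 16, quantile normalization, log2), then lmFit and eBayes without covariates on 19958 kept probes. This background step widens fold changes of dim probes. Symbols were updated through the gene ID to RefSeq (GRCh38.p14). The brightest kept probe stood for a gene. With 3 arrays per group, their number limits the precision. Fits were tested on simulated data, and 16 alternative settings were run.

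The members and lists were chosen with earlier results of these data known. Values per sample are given for members past the threshold, the 8 smallest p-values and 8 genes always named (2 of them not measured). Of the further genes, those past the threshold and 5 fixed ones are named. Replicate numbers were not taken as pairs, since deviations of same-numbered samples correlated at -0.17, 0.01 and 0.13.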

Additional observations from a re-analysis of the deposited data

How the results depend on the processing

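Over the 16 alternatives, PPP1R15A, PPP1R15B and SYVN1 kept a log2 fold change above 0 wherever they were measured (16, 15 and 16 settings) and passed the threshold in 11, 9 and 9. The count of members past the threshold was 3, and it was 5 without background correction, with median centring, with the deposited processed values and with array weights, and 6 with eBayes set to trend and robust. Over all 11582 genes 631 passed as reported, and 1364, 710, 1351, 970 and 1240 in those settings in the same order. Nothing is read from the higher member counts. The member counts with array weights, with trend and robust and without vehicle replicate 1 each include NUPR1, which was lower. With the replicate number as a block (replicate block) the member count was 0, and over all genes 40 were called in place of 631. It was 0 to 2 with 1 array left out, where 4 to 369 genes were called in all. Further pathway genes past the threshold numbered 2, and 10 without background correction, 7 with an offset of 50 and 1 with median centring. They numbered 13 with the deposited processed values, 4 without the filter on dim probes, 9 with trend and robust and 4 with array weights. With the replicate block they numbered 0, and with an array left out 0 to 1. Calls over all genes moved in these settings too, with 1174 at an offset of 50 and 699 of 20045 without the filter. Nothing is read from the changes in these counts. Median centring moved the median of all genes to 0.24 and the share of risers among calls from 65.9% to 94.9%. It gave medians of 0.33 for the ATF4 arm and 0.27 for the XBP1 and ATF6 arms, which are 0.092 and 0.023 above that shift. The latter median was 0.045 with array weights and 0.018 to 0.10 with an array left out, where that of the ATF4 arm was -0.021 to 0.16. The log2 fold change of ATF4 was -0.0066 without inhibitor replicate 2 and -0.017 without inhibitor replicate 3, and its range with an array left out was -0.017 to 0.10. The cause of these shifts was not tested. Genes near background, such as PPP1R15B, NUPR1 and EIF2AK3, had smaller fold changes in the deposited processed values.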
